A study of Homo sapiens with 8 samples.

Results

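The genes of polyamine metabolism were examined through the small open reading frames (smORFs, short reading frames that the authors kept as lying outside RefSeq coding regions) that ribosomes were found on in their transcripts. The authors called the smORFs over several cell types, Caco-2 among them, and most in only 1 of these. A member listed here need not have been called as translated in Caco-2. A smORF was taken when its annotated host gene was OAZ1, OAZ2, AMD1, ODC1, AZIN1, SAT1, SAT2 or SMOX, which gave 34 smORFs of the 24199 in the series. They came from 6 of the 8 genes, with 24 smORFs in AZIN1, 6 in SAT2 and 1 each in OAZ1, OAZ2, AMD1 and ODC1. The annotation listed no smORF for SAT1 or SMOX.

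The measurements were ribosome profiling (Ribo-Seq) counts, which are numbers of sequenced RNA fragments shielded by ribosomes, from Caco-2 cells. Caco-2 is an established human colon carcinoma line that acquires features of absorptive enterocytes when it differentiates. The 8 libraries formed 4 groups of 2: undifferentiated cells, differentiated cells labelled control (differentiated control), differentiated cells given taurocholate micelles without lipid (empty micelles), and differentiated cells given lipid micelles holding BSA, oleic acid and cholesterol. All groups were of this 1 line, the dose of the micelles is not given in the sources used here, their time is given (overnight) only for the study's proteomic samples, and nothing states that the 2 libraries of a group came from separate cultures, so the p-values below measure only the spread between these libraries, which may be technical. The labels name taurocholate for the empty micelles only, so whether lipid micelles also held it is not stated. In the proteomic samples, undifferentiated plates were harvested after fewer days of culture than differentiated ones. There the differentiated plates, those in medium alone included, spent the last night without serum. Whether this held for the libraries used here is not stated, and the part of culture age or serum in the values below was not tested.

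Polyamines (putrescine, spermidine and spermine) are small cations that bind nucleic acids and are needed for growth, and the renewing gut epithelium is among the tissues known to depend on them. ODC1 makes putrescine and AMD1 supplies the aminopropyl donor for spermidine and spermine, antizymes (OAZ1, OAZ2) bind ODC1 and send it to the proteasome, and AZIN1 binds the antizymes in its place. SAT1 and SMOX acetylate and oxidise polyamines, while SAT2 is a relative of SAT1 known mainly for acetylating thialysine. Several of these mRNAs are textbook cases of control at translation: AMD1 and AZIN1 carry conserved reading frames in their leaders (5′ untranslated regions), and antizyme synthesis needs a programmed frameshift.

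The leader smORF of AMD1 and that of ODC1 are printed because each lies before the coding region of a synthetic enzyme, and the SAT2 set because its members are nested in one another. Letters are hg38, identical to the deposited smORF sequence, 5′ to 3′ on the transcribed strand, and capitals mark the ATG start and, for AMD1, also the stop.
AMD1 IEC_03665, with 6 nt before it: cacagtATGgccggcgacattagcTAG
ODC1 IEC_13230: ATGgggctggcctgcggcgcctgggcgctc
SAT2 IEC_13992: ATGctgaggcctccctggaggaaggagggt
SAT2 IEC_22116: ATGctgaggcctccctggaggaag
SAT2 IEC_22169: ATGctgaggcctccctgg

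IEC_03665 is the 6-codon AMD1 frame, at chr6:110874796-110874813 on the plus strand (the printed run is chr6:110874790-110874816). It began 11 nt after the 5′ end of the canonical transcript, lay wholly in the leader and stopped 292 nt before the AMD1 coding start. IEC_13230, the 10-codon ODC1 frame at chr2:10448125-10448154 on the minus strand, ended 131 nt before the ODC1 coding start and was followed by TGA. The 3 printed SAT2 smORFs start at the same ATG in the 3′ untranslated region at chr17:7626361 on the minus strand. IEC_13992 (30 nt, to 7626332) is followed by TAG, whereas IEC_22116 (24 nt) and IEC_22169 (18 nt) end where other annotated SAT2 transcripts end.

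Of the 34 smORFs, 28 were classed by the authors as uORFs (upstream of a coding region) and 6, all in SAT2, as dORFs (downstream of one). Their median length was 16 amino acids, against 31 over the series, and 15 of 34 (44.1%) began with ATG against 43.4% of all smORFs. A positive mean PhyloCSF, a score of how protein-like the substitutions between species are, was held by 6 of the 34 (17.6%), against 1.75% of all smORFs. The 6 were AMD1 IEC_03665 at 2.74 and AZIN1 IEC_20876 at 3.56, IEC_20836 at 3.36, IEC_15613 at 1.91, IEC_15610 at 1.06 and IEC_20721 at 0.192. IEC_20876, IEC_20836, IEC_15613 and IEC_20721 share the same 102 nt and are not separate cases. The 34 smORFs fell into 7 clusters of overlapping frames, 2 of them in AZIN1.

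Library totals ran from 506382 to 884711 smORF counts, so that 3 counts, the upper limit that a count of 0 allows, corresponded to between 3.39 and 5.92 CPM. These limits, and the intervals on counts given below, cover counting error only. CPM is a count scaled to a common library total of 1000000, after TMM scaling (edgeR's correction for differences in composition) except in these limits and in the summed levels of the next sentences. The group labels were checked on host genes. Of the listed proliferation genes, 5 of 12 held a smORF (MKI67, TOP2A, CCNB2, CDK1 and AURKA). All 18 tested smORFs of these were lower in differentiated control than in undifferentiated cells. Their summed level was 636 to 642 CPM against 7019 to 7434 CPM. Of the listed enterocyte genes, 6 of 13 held a smORF, but the 6 tested smORFs lay only in APOA4, APOB, FABP1 and APOA1. The 5 in APOA4, APOB and FABP1 were higher and the 1 in APOA1 was lower. The summed level of all enterocyte smORFs was 3084 to 3454 CPM against 1388 to 1803 CPM. Among others, the enterocyte markers ALPI, SI and VIL1 and the goblet markers MUC2 and TFF3 held no smORF, and fibroblast and leukocyte marker genes stayed at or under 17.9 CPM in sum in any library. What part these changes have in the values below was not tested.

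The first comparison asked how the smORFs of polyamine genes differed between differentiated control and undifferentiated cells. Ribosomes on the AMD1 leader frame fell 2.98-fold and the SAT2 dORF IEC_13991 rose 2.38-fold. In SAT2, 3 short frames nested in one another also passed, with sizes that hung on 1 library. In AZIN1, 3 frames that run into an optional leader exon rose 2.11- to 2.16-fold, while the far more abundant conserved frame did not pass. In a second test (DESeq2) the AMD1 and AZIN1 calls were lost and those in SAT2 were kept. A change was called at a Benjamini-Hochberg adjusted p under 0.05 over all smORFs tested and an absolute log2 fold change of 1 or more in edgeR's quasi-likelihood test. Of the 34 smORFs 29 passed the filter on low counts and were tested, and 8 were called (7 higher, 1 lower), which is 27.6% against 33.4% of the 15182 smORFs tested in the series. The share of members called was thus near the background. Their median log2 fold change was 0.06, against 0.02 over all smORFs tested. The 8 calls lay in 3 overlap clusters and are not 8 separate events. Because no matched RNA was used here, more mRNA and more ribosomes per mRNA cannot be told apart in any value below, nor can fewer expressing cells and less signal per cell.

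**Figure D1:**
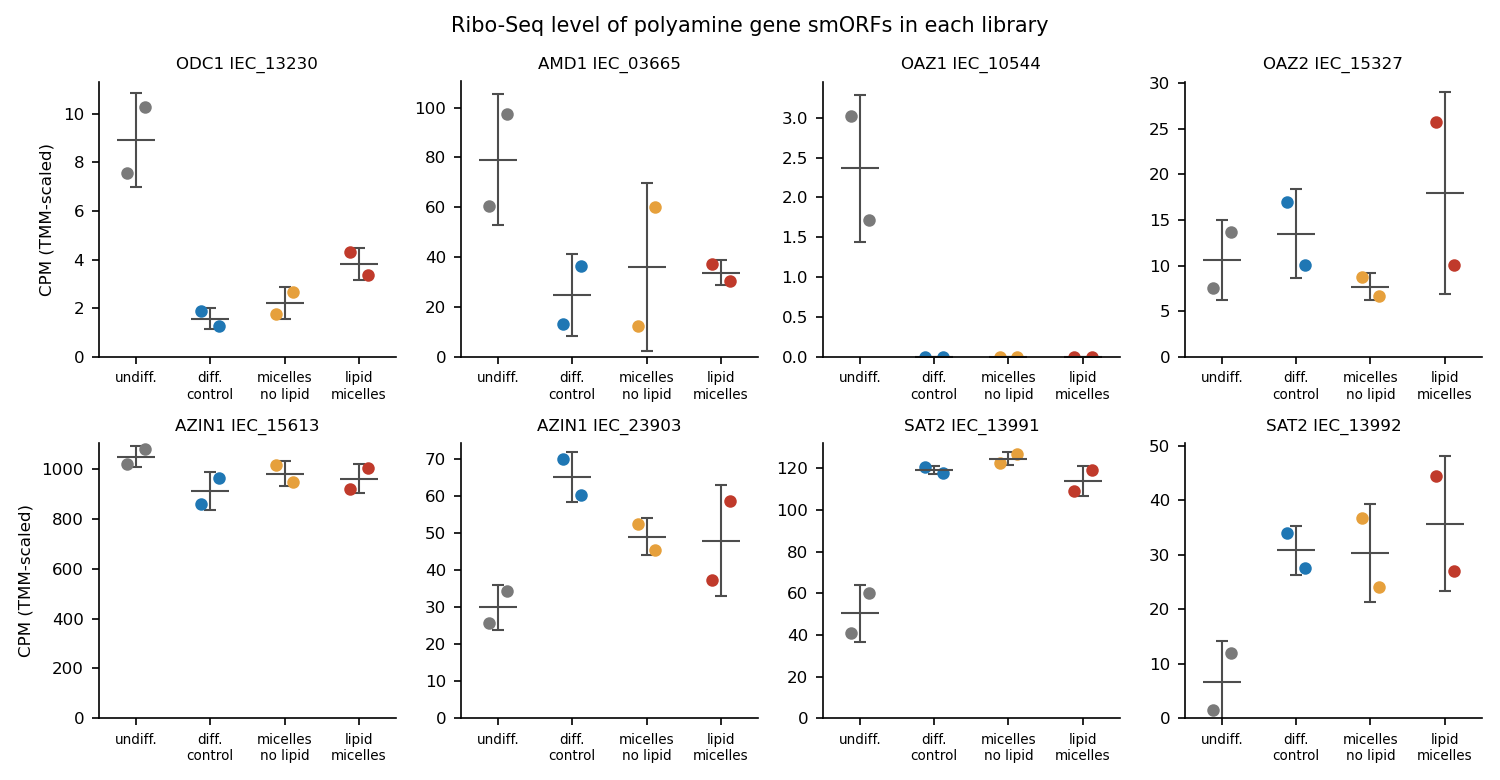
Level of 8 smORFs in every library, in TMM-scaled CPM on linear axes that start at 0, with dots for the 2 libraries of each group and bars for the mean ± SD. AMD1 IEC_03665 sits highest in undifferentiated cells (60.4 and 97.6 CPM), SAT2 IEC_13991 lowest there (40.8 and 59.9 CPM), and AZIN1 IEC_15613 stays between 858 and 1079 CPM throughout.

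Among the synthetic enzymes, ODC1, the entry enzyme of the pathway, carried few reads. Its frame IEC_13230 had 5 and 6 counts in undifferentiated cells, 1 and 1 in differentiated control, 1 and 2 with empty micelles, and 3 and 3 with lipid micelles. Both undifferentiated libraries were above all 6 others, none reached 10 counts, and the smORF was not tested. Relative to the library totals, the 11 counts of undifferentiated cells were 5.66 times the level of the 2 counts of the control (exact 95% counting interval 1.24 to 52.6). With lipid micelles the ratio to control was 2.44 (0.437 to 24.7), an interval that holds 1.

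AMD1, which decarboxylates S-adenosylmethionine, was read through IEC_03665, the hexacodon frame printed above. It held 40 and 57 counts in undifferentiated cells, 7 and 29 in differentiated control, 7 and 45 with empty micelles and 26 and 27 with lipid micelles. In CPM these were 60.4 and 97.6, 13.2 and 36.4, 12.2 and 60.0, and 37.3 and 30.3. Both undifferentiated libraries lay above all differentiated ones, though the second library with empty micelles, at 60.0 CPM, was close to the lower of them. From 79.0 ± 26.3 CPM (SD, n = 2) to 24.8 ± 16.4 CPM, the log2 fold change in differentiated control was -1.58 ± 0.52 (SE, edgeR quasi-likelihood test, adjusted p = 0.0239), and 18.7% of the 11112 uORFs tested were called lower. This call was lost without the second undifferentiated library, without the first control library (log2 fold change -1.06) and with DESeq2, and the value ran from -2.56 to -1.06 over 15 alternatives.

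The antizymes were poorly covered. OAZ1 IEC_10544, a 16-codon ATG frame at chr19:2270380-2270427 on the plus strand, lay in the leader of an alternative transcript and in an intron of the canonical one. It held 2 and 1 counts in undifferentiated cells and 0 in all 6 differentiated libraries, which at this depth allows no fold to be given. OAZ2 IEC_15327, 28 codons at chr15:64703067-64703150 on the minus strand, had no ATG start and ended 18 nt before the OAZ2 coding start, in the same frame. Counts were 5 and 8 in undifferentiated cells, 9 and 8 in control, 5 and 5 with empty micelles, and 18 and 9 with lipid micelles. The first lipid-micelle library stood alone at 25.8 CPM, and the others lay between 6.67 and 17.0 CPM. Between control and undifferentiated cells the log2 fold change was 0.31 ± 0.65 (95% interval -1.06 to 1.68, adjusted p = 0.741 in edgeR). Changes of any size inside that wide interval are compatible with these counts.

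AZIN1, the antizyme inhibitor, held 94.3% of all counts on these genes. Its 24 uORFs are named by position and number only, since their letters are not printed, and lie on the minus strand of chromosome 8. In the upstream cluster of 10 smORFs, 5 frames end at the same base (chr8:102858049), 131 nt before the AZIN1 coding start, and share their last 102 nt, which another GENCODE transcript of AZIN1 annotates as coding. IEC_15613 (174 nt, chr8:102858049-102863878 over 2 exons, no ATG start) was the most read of all 34, ranking 89 of 24199 by mean count.

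IEC_15613 held 675 and 630 counts in undifferentiated cells, 455 and 768 in control, 581 and 709 with empty micelles and 641 and 893 with lipid micelles. In CPM it was at 1019 and 1079, 858 and 964, 1016 and 946, and 919 and 1004. The undifferentiated libraries were the highest by a small margin, and the log2 fold change of control over undifferentiated was -0.20 ± 0.23 (adjusted p = 0.516, edgeR), with a 95% interval of -0.68 to 0.28. IEC_23887, of 279 nt, and IEC_20876, of 102 nt, overlap it. IEC_23887 held 635 and 534 counts in undifferentiated cells, 407 and 614 in control, 418 and 580 with empty micelles and 563 and 769 with lipid micelles, a log2 fold change of -0.28 ± 0.23 in control (adjusted p = 0.344). IEC_20876 held 434 and 389 counts in undifferentiated cells against 270 and 393 in control, with 310 and 341 and then 349 and 512 in the micelle groups, at -0.40 ± 0.23 in control (adjusted p = 0.192). IEC_20836 and IEC_20721 had the same count as each other in every library. None of the 10 smORFs of this cluster was called, and their log2 fold changes ran from -0.48 to 0.06.

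The other AZIN1 cluster, of 14 smORFs, lies nearer the coding start. Of these, 9 run into an exon that 6 of the 17 annotated AZIN1 transcripts include and the canonical one skips (chr8:102849987-102850165 at its widest), a grouping made after the values were seen. Among these 9, 6 were tested and 3 called, all higher in control, and the 6 did not all move alike, IEC_16000 (32 nt in the exon) being at -0.24 ± 0.49 (adjusted p = 0.735, edgeR). IEC_23903, of 153 nt with an ATG start and 151 nt in that exon, held 17 and 20 counts in undifferentiated cells, 37 and 48 in control, 30 and 34 with empty micelles and 26 and 52 with lipid micelles. Its 6 differentiated libraries, at 37.3 to 69.8 CPM, all lay above the undifferentiated ones at 25.7 and 34.2 CPM. The log2 fold change between these groups was 1.11 ± 0.35 (adjusted p = 0.0205, edgeR quasi-likelihood test).

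IEC_20719 shares its start with IEC_23903 and ends sooner. It differed from IEC_23903 by 1 count in 1 library, at 37 and 47 in control, and reached a log2 fold change of 1.10 ± 0.35 (adjusted p = 0.0223, edgeR). IEC_16003 held 16 and 19 counts in undifferentiated cells, 32 and 47 in control, 31 and 34 with empty micelles and 19 and 46 with lipid micelles, at 1.08 ± 0.37 (adjusted p = 0.0320, edgeR). Its first lipid-micelle library (27.2 CPM) lay among the undifferentiated ones (24.2 and 32.5 CPM). IEC_16001, the longest frame through the exon, passed on p but not on size (0.97 ± 0.35, adjusted p = 0.0394). These smORFs overlap with nearly equal counts, so the 3 calls are not independent. Of the 11112 uORFs tested, 10.9% were called higher. The 3 calls were lost without the first undifferentiated library, without the first control library and with DESeq2, and without the second control library, and those of IEC_20719 and IEC_16003 also without the second undifferentiated library. Nearest the coding start, IEC_15610 (27 nt, ending 4 nt before it) held 10 and 19 counts in undifferentiated cells against 9 and 8 in control, at -0.84 ± 0.54 (adjusted p = 0.230), whereas IEC_23878, also outside the optional exon, was at 0.93 ± 0.63 (adjusted p = 0.259). These 2 and IEC_16000 were chosen after their values were seen, and the higher values are not shown to be particular to the exon.

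**Figure D2:**
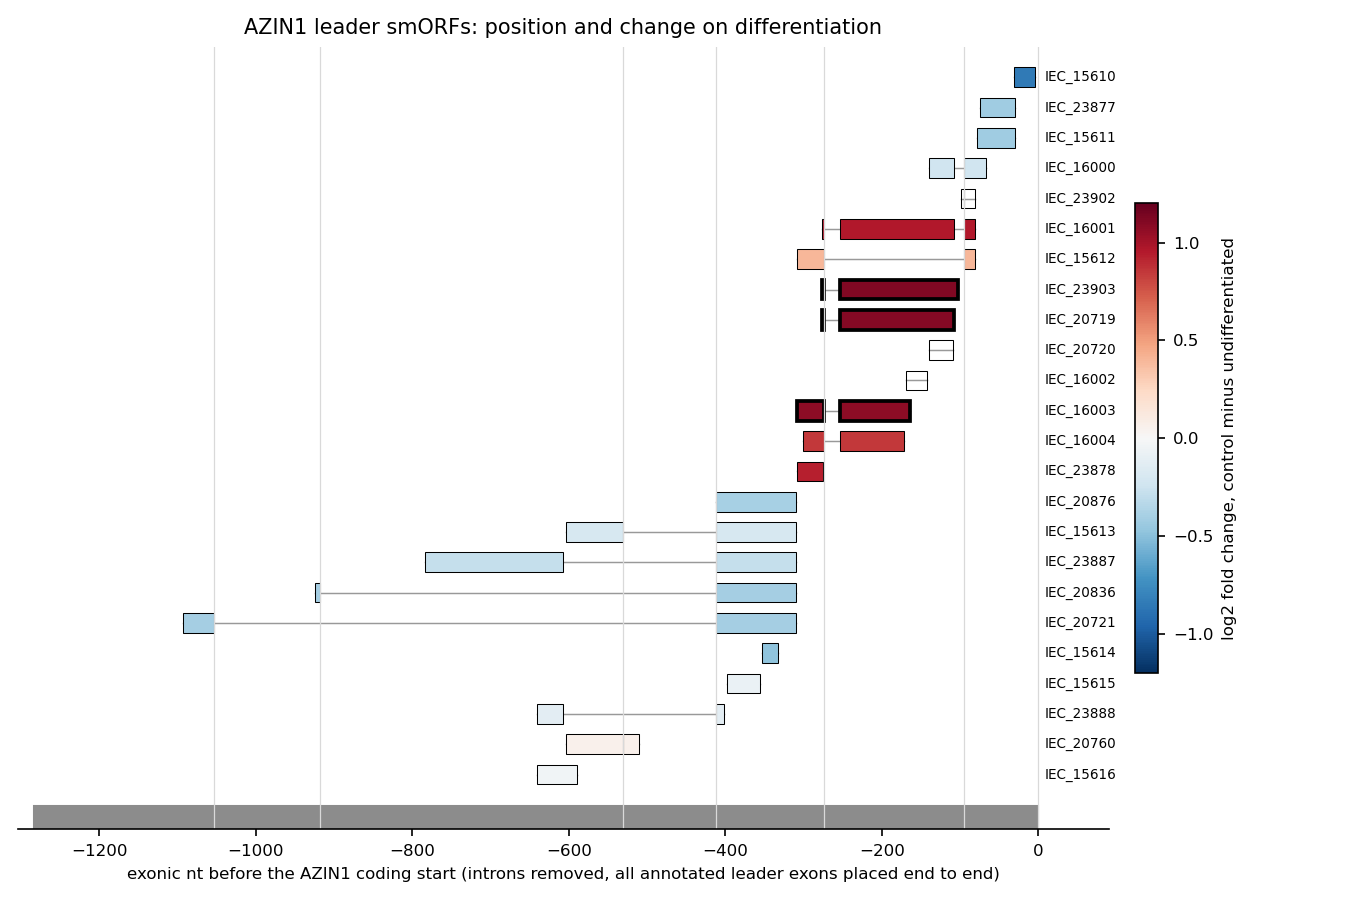
Map of the 24 AZIN1 smORFs, with the distance before the coding start in exonic nucleotides (introns removed, annotated leader exons placed end to end, grey bar) on the x axis and the log2 fold change of differentiated control minus undifferentiated as colour. Heavy outlines mark the 3 called smORFs (1.08 to 1.11), open boxes the 3 that were not tested, and the 10 upstream smORFs are pale blue to near white (-0.48 to 0.06).

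Whether these AZIN1 frames moved apart from the others of the same gene was tested directly, by comparing each smORF with the rest of its host gene (edgeR's differential usage test). From undifferentiated cells to control, the natural-log fold change of IEC_23903 exceeded that of AZIN1 as a whole by 0.91. That of IEC_20719 exceeded it by 0.90 and that of IEC_16003 by 0.89. The adjusted p in this test were 0.0693, 0.0754 and 0.1002. These differences are in natural-log units and are not on the log2 scale of the other values. None of the 27 AZIN1 and SAT2 smORFs so tested passed at an adjusted p under 0.05, and 1.12% of the 13245 smORFs in the test passed. An unadjusted p under 0.05 was held by 5 of the 27, against 840 of the 13245, and all 5 are overlapping frames of the optional exon (the 3 above, IEC_16001 and IEC_16004). With the replicate number as a block, an alternative to the main fit, IEC_23903 (adjusted p = 0.0409) and IEC_20719 (adjusted p = 0.0467) passed this usage test. The study states no pairing that this block would follow. None of the polyamine smORFs passed with no low-count filter, nor with 1 smORF per overlap cluster, which leaves both of these out.

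SAT2 was represented by 6 dORFs in 1 cluster at chr17:7626253-7626434. IEC_13991 (165 nt, no ATG start) began 15 nt after the last coding base, in the coding frame, with a stop codon before it. It held 27 and 35 counts in undifferentiated cells, 64 and 94 in control, 70 and 95 with empty micelles and 76 and 106 with lipid micelles. All 6 differentiated libraries lay between 109 and 127 CPM, above the undifferentiated ones at 40.8 and 59.9 CPM. From 50.4 ± 13.6 to 119 ± 1.95 CPM (SD, n = 2), the log2 fold change in control was 1.25 ± 0.29 (adjusted p = 0.00312, edgeR).

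The nested ATG frames printed above were called as well. IEC_13992 held 1 and 7 counts in undifferentiated cells, 18 and 22 in control, 21 and 18 with empty micelles and 31 and 24 with lipid micelles, at 2.20 ± 0.62 in control (adjusted p = 0.0103, edgeR). IEC_22116 differed from it by at most 2 counts in any library (1 and 7, 17 and 22, 21 and 16, 31 and 24), at 2.16 ± 0.63 (adjusted p = 0.0125). IEC_22169 had 1 and 5, 16 and 21, 20 and 16, and 31 and 24 counts in the same order of groups, at 2.49 ± 0.63 (adjusted p = 0.00550). In each of these 3 the undifferentiated libraries were below all others, and since the sequences are nested the 3 values are not separate measurements. Their size rested on the undifferentiated libraries: the log2 fold change of IEC_13992 was 1.34 without the first of them and 4.17 without the second, that of IEC_22116 1.30 and 4.13, and that of IEC_22169 1.70 and 4.05. The test within the gene did not separate any SAT2 dORF from the rest. All SAT2 dORFs lie in the same overlap cluster and may share reads. Each was thus compared with frames that may hold the same reads, so no conclusion is drawn from this test.

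The 2 other SAT2 dORFs were not called. IEC_22119 (69 nt, sharing its start with IEC_13991) had 12 and 7 counts in undifferentiated cells, 16 and 24 in control, 16 and 34 with empty micelles and 22 and 35 with lipid micelles, at 0.98 ± 0.44 (adjusted p = 0.0912). IEC_13990 had 10 and 18, 18 and 30, 14 and 24, and 10 and 30 counts, at 0.66 ± 0.46 (adjusted p = 0.272), and its first lipid-micelle library was below both undifferentiated ones. Thus 4 of 6 SAT2 dORFs were called higher, where 36.7% of the 879 dORFs tested in the series were called higher and 2.73% lower. All 4 calls were lost when the first undifferentiated library, which held 1 count on each nested frame, was left out (IEC_13991 then at 1.00, adjusted p = 0.0516), and they held in each other alternative that tested them.

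**Figure D3:**
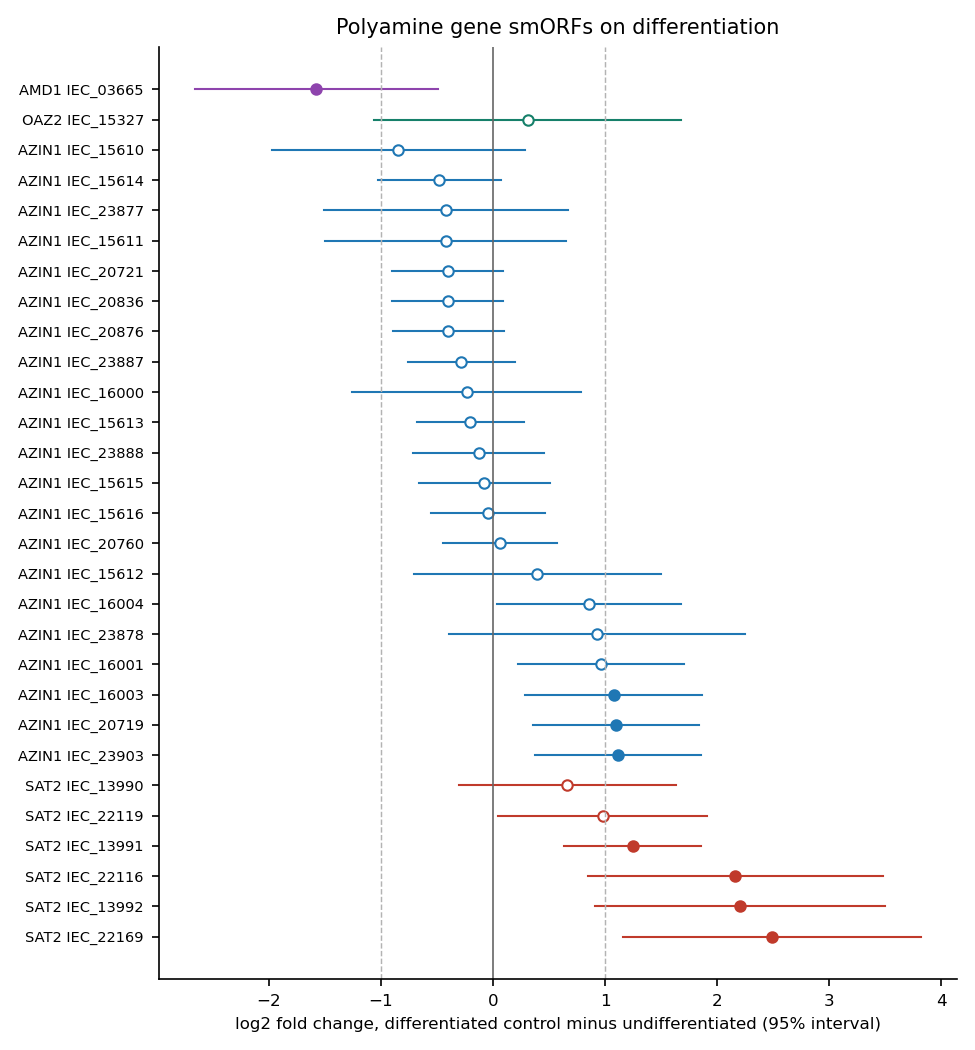
Log2 fold change of differentiated control minus undifferentiated for the 29 smORFs tested, with 95% intervals and colour by gene, filled where called, and dashed lines at the fold threshold. AMD1 IEC_03665 stands alone on the left (-1.58), and all 6 SAT2 dORFs lie on the right (0.66 to 2.49).

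Across the 29 tested smORFs, the CPM ranges of the control and undifferentiated libraries did not overlap for 20, a pattern that 69.5% of all tested smORFs showed. Leaving out the first undifferentiated library reduced the 8 calls to 1, that of AMD1 IEC_03665. Without the second undifferentiated library 5 calls remained, without the first control library 4 and without the second control library 5.

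Per 100 nt of frame, the most read smORF of each gene kept AZIN1 and AMD1 first and second by mean in every group, but with empty micelles the libraries of AMD1 IEC_03665 (201 ± 188 CPM per 100 nt) and of SAT2 IEC_13991 (75.5 ± 1.84), the next in order, overlapped. In undifferentiated cells IEC_15613 had 603 ± 24.2 CPM per 100 nt (SD, n = 2), AMD1 IEC_03665 439 ± 146, SAT2 IEC_13991 30.5 ± 8.21, ODC1 IEC_13230 29.7 ± 6.42, OAZ2 IEC_15327 12.6 ± 5.18 and OAZ1 IEC_10544 4.93 ± 1.93. The libraries of SAT2 and ODC1 overlapped, and the other neighbours in this order were apart. The lower ranks rest on few counts: 5 and 6 for ODC1, 5 and 8 for OAZ2, and 2 and 1 for OAZ1. In control the order was AZIN1 IEC_15613 (524 ± 42.9), AMD1 IEC_03665 (138 ± 91.1), SAT2 IEC_13991 (72.3 ± 1.18), OAZ2 IEC_15327 (16.1 ± 5.84), ODC1 IEC_13230 (5.24 ± 1.49) and OAZ1 IEC_10544 at a count of 0. There ODC1 rested on 1 and 1 counts, so its SD reflects only the scaling of the libraries. A frame as short as that of AMD1, 18 nt, is shorter than a ribosome footprint, so its value per length depends on how fragments that reach past its ends were counted.

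The 3 micelle comparisons set empty micelles against control, lipid micelles against control, and lipid micelles against empty micelles. BSA is named above for lipid micelles only and taurocholate for empty micelles only, so the last comparison does not isolate the lipid. No polyamine smORF was called in any of the 3 comparisons by edgeR's quasi-likelihood test, none of the 29 had even an unadjusted p under 0.05, and DESeq2 called none. In the series 0% of the 15182 smORFs tested were called in each comparison, with 4.08%, 4.66% and 4.13% at an unadjusted p under 0.05 for micelles without lipid against control, lipid micelles against control, and lipid micelles against micelles without lipid. With the replicate number as a block among the 6 differentiated libraries, 15, 1 and 14 smORFs of the series were called in that order, and 0 of the polyamine genes. Each pair of these comparisons has a group in common, so their values are given side by side.

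AMD1 IEC_03665 was at 0.52 ± 0.55 on the log2 scale with empty micelles and 0.36 ± 0.55 with lipid micelles against control, with 95% intervals of -0.63 to 1.68 and -0.80 to 1.51. The 2 libraries with empty micelles (7 and 45 counts) differed more than those with lipid micelles (26 and 27). AZIN1 IEC_15613 was at 0.11 ± 0.23 and 0.08 ± 0.23, with intervals of -0.37 to 0.59 and -0.40 to 0.56, which lie within 1 log2 unit of 0 on either side. SAT2 IEC_13991 was likewise held within narrow intervals (0.06, -0.50 to 0.62, and -0.06, -0.62 to 0.49). AZIN1 IEC_23903 had -0.41 ± 0.33 and -0.42 ± 0.32, with all 4 micelle libraries (37.3 to 58.4 CPM) below both control libraries (60.2 and 69.8 CPM). Groups whose CPM ranges did not overlap were seen for 12 of the 29 smORFs in either comparison with control, against 32.1% and 35.8% of all smORFs tested, and for 6 of 29 between the micelle groups, against 32.7%.

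Between lipid micelles and micelles without lipid, the value farthest from 0 was that of OAZ2 IEC_15327, at 1.18 ± 0.64 (95% interval -0.16 to 2.52, adjusted p = 0.999 in edgeR). It rested on 18 and 9 counts against 5 and 5, and its interval included 0. The other 28 smORFs lay between -0.80 (AZIN1 IEC_15612) and 0.35 (SAT2 IEC_22169). The medians of the 29 smORFs in the 3 comparisons were -0.01, 0.09 and -0.01, against 0.01, 0.00 and -0.01 over all smORFs tested.

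**Figure D4:**
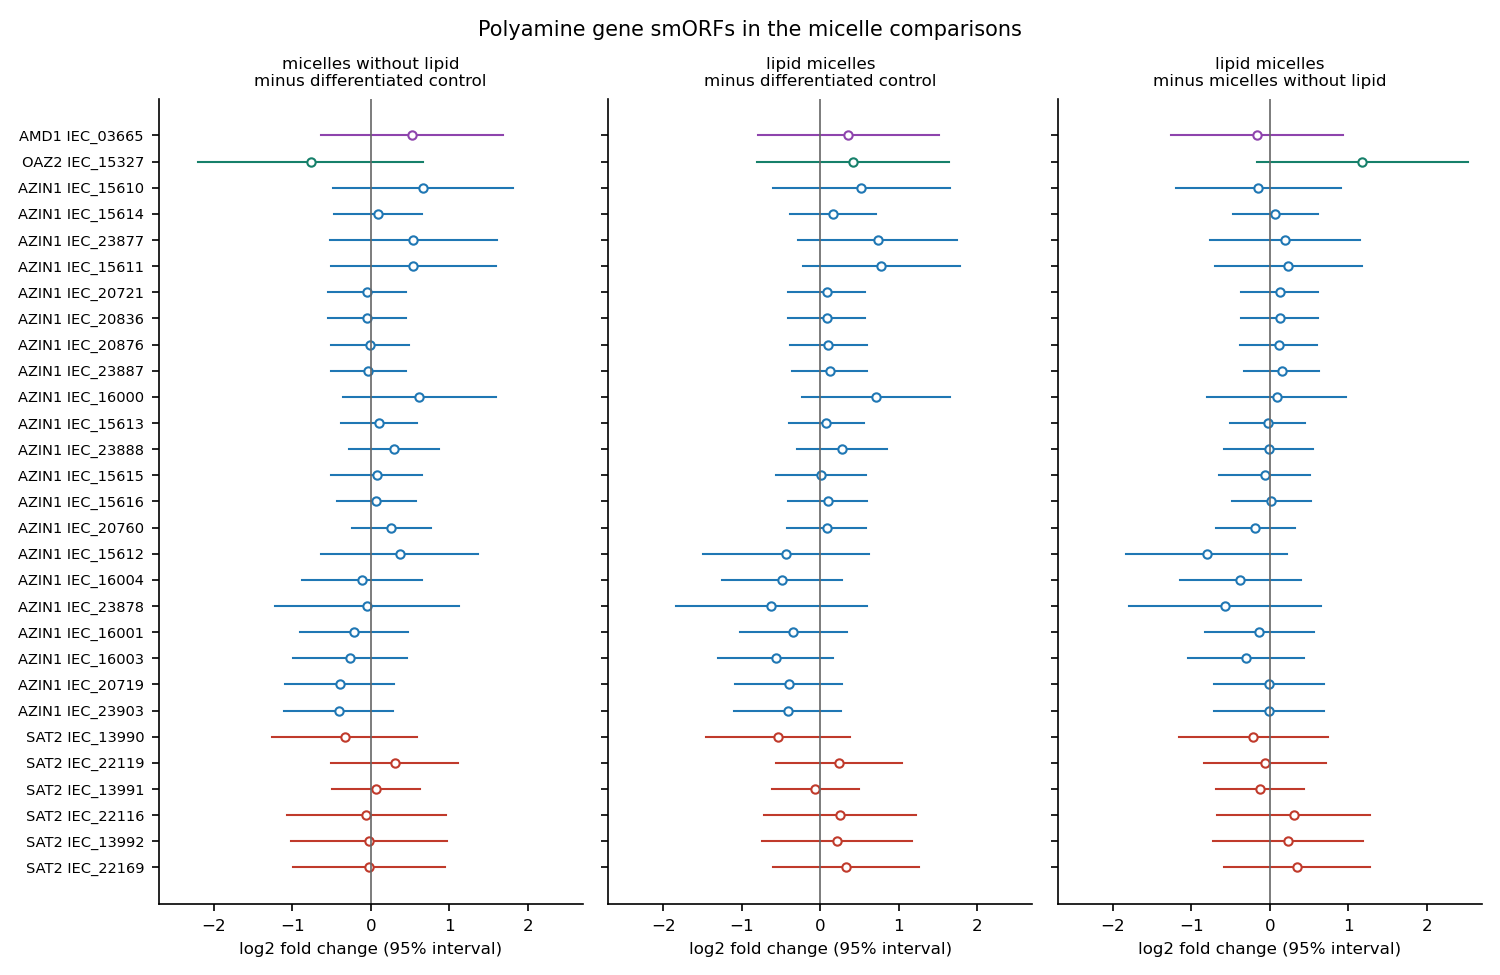
Log2 fold changes with 95% intervals of the 29 tested smORFs in the 3 micelle comparisons, coloured by gene (AMD1, OAZ2, AZIN1 and SAT2 from top to bottom), all open because none was called. Every interval crosses 0, and OAZ2 IEC_15327 in the right panel, at 1.18, is the point farthest from it.

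Among the neighbours of the pathway, the lists were read by their smORFs in control against undifferentiated cells. Of 9 tested smORFs in other polyamine genes and transporters (4 of 10 listed genes held a smORF), 5 were called lower and 0 higher, all 5 in SLC3A2 (a transporter subunit also linked to polyamine movement), with a median of -1.54, where 15.5% of the 15182 smORFs tested were called lower. SLC3A2 IEC_04243 went from 62 and 53 counts to 15 and 16, a log2 fold change of -1.95 ± 0.39 (adjusted p = 9.41e-04, edgeR), and the overlapping IEC_12343 from 53 and 43 to 15 and 16, at -1.69 ± 0.38 (adjusted p = 0.00251). In the hypusine list, around the translation factor EIF5A that is modified from spermidine (2 of 5 listed genes held a smORF), 1 of 4 was called: EIF5A IEC_10199 fell from 81 and 78 counts to 12 and 23, at -2.28 ± 0.32 (adjusted p = 3.45e-05). None of 7 smORFs of methionine salvage and S-adenosylmethionine genes was called.

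Of the 9 listed genes that supply or use ornithine, 3 held a smORF (GATM, OAT and ALDH18A1). Of their 21 tested smORFs 16 were called higher and 0 lower, with a median of 2.63, where 17.9% of the 15182 smORFs tested were called higher. The 16 calls lie in these 3 genes and are not 16 separate events. GATM, which makes the creatine precursor and releases ornithine, rose from 3 and 4 counts to 118 and 156 on IEC_21110 (5.17 ± 0.40, adjusted p = 7.61e-08) and from 2 and 4 to 108 and 178 on IEC_19594 (5.42 ± 0.41, adjusted p = 6.81e-08). In the micelle comparisons none of these lists had a called smORF.

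The smORFs whose pattern over the 8 libraries was most like that of AZIN1 IEC_15613 were uORFs of SLC25A40 (IEC_15778), ZDHHC6 (IEC_16765) and TLNRD1 (IEC_01130). Their centred log2 CPM differed from it by a root mean square of 0.074, 0.080 and 0.097, against a median of 0.523 over the other smORFs tested.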

How the data were processed

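Ribosome profiling counts of 8 Caco-2 libraries were analysed. The authors aligned reads to hg38 with STAR (2.7.11a in the submitters' processing notes) and assembled transcripts. They scored translated frames with RibORF over several cell types, not in Caco-2 alone, and counted reads inside every smORF with HOMER. The deposited counts are raw and whole. Whether HOMER used strand, exons or reads with several positions is not given in the sources used here, so reads of overlapping smORFs may count for each of them. The RibORF and PhyloCSF scores were deposited by the authors in the annotation. The maximum RibORF score of a smORF had a median of 0.916 for the polyamine genes and 0.876 over all smORFs. All 34 sequences were identical to hg38. Positions relative to genes came from GENCODE release v44. No member overlapped an antisense exon.

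Members, gene lists and tests were chosen with earlier results of these data known. smORFs passing filterByExpr (15182) were fitted in edgeR 4.0.16 (R 4.3.3, TMM, 1 term per group, all 8 libraries), and p-values, two-sided, were adjusted by Benjamini-Hochberg over all of them. Standard errors derive from the quasi-likelihood F statistic. Named smORFs are, per gene, the 3 with most counts among those tested, plus each called one (the best covered one if none was tested). From each pathway list at most 2 called smORFs per direction were named, by mean count. Likeness was the root mean square difference of centred log2 CPM. Usage within a host gene was tested with diffSpliceDGE. The study stated no test for these counts. Equal replicate numbers were checked for pairing. Deviations from the group means correlated weakly between differentiated groups (0.198, 0.119 and 0.109) and at -0.065 to 0.021 with undifferentiated cells. The study states no pairing, so the main fit held no replicate block, and blocks were run only as alternatives. Alternatives were RLE factors, totals only, DESeq2 1.42.0, no filter, 10 counts in every library, 1 smORF per overlap cluster, 2 groups only, replicate blocks and leaving out each library. Fits were tested on simulated data. Python 3.11.15, scipy 1.17.1 and matplotlib 3.10.9 were used. All per-library columns were used.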

Additional observations from a re-analysis of the deposited data

How the results depend on the processing

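The number of polyamine smORFs called between differentiated control and undifferentiated cells, 8 in the test as reported, was 5 of 17 tested with 10 counts required in every library, 2 of 5 with 1 smORF per overlap cluster (AMD1 IEC_03665 and SAT2 IEC_13991, the AZIN1 cluster then being read by IEC_16001), 4 with DESeq2 (all in SAT2) and 1 to 9 when a library was left out. Over all smORFs the same comparison gave 5070 calls, and 1582, 2310 and 2951 under these 3 alternatives (3609 to 5609 with a library left out), the first 2 of which test fewer smORFs. RLE factors, library totals, no filter and the fit on 2 groups gave between 8 and 9 polyamine calls. No called value changed its sign. The replicate block on 8 libraries called the same 8 smORFs, and in the within-gene test it called 2 of them (IEC_23903 and IEC_20719) where 0 passed without it. That test called 148 smORFs of the series, 81 with 1 per cluster and 33 to 143 with a library left out.

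In the micelle comparisons 0 polyamine smORFs were called under every alternative run. Over all smORFs, where the test called 0, micelles without lipid against control gave 36 calls with no filter, 15 with the replicate block on 8 or on 6 libraries, 2 with DESeq2 and 0 to 25 with a library left out. Lipid micelles against control gave 4 with no filter, 1 with the block on 6 libraries, and in the within-gene test 0 to 1 with a library left out. Lipid micelles against micelles without lipid gave 23 with no filter, 3 and 14 with the block on 8 and 6 libraries, and 0 to 1 with a library left out. With 2 libraries a group and 0 to 57 counts on the smORFs of ODC1, OAZ1, OAZ2 and AMD1, intervals there were wide (-1.06 to 1.68 for OAZ2 IEC_15327 in the first comparison).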
